A study of Solanum tuberosum with 10 samples.

Results

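PCM6 is a calmodulin gene of potato, and its transcript was followed in cut stem explants with and without ultrasound treatment. It was chosen by name, as the row of the deposited count table that carries the symbol PCM6 for its own identifier, PGSC0003DMG400022693. This is 1 of the 39021 gene models listed, of which 22 carry a symbol. The rule uses no measured value.

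Calmodulin is a small calcium-binding protein of the cytosol and nucleus. When calcium in the cell rises, calmodulin binds it through its EF-hand loops, changes shape and attaches to target proteins such as glutamate decarboxylase, calcium pumps and CAMTA transcription factors. In plants, cytosolic calcium is known to rise within moments of touch, wounding or cold, and calmodulin genes occur as small families that encode nearly identical proteins.

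The plants were in vitro potato (Solanum tuberosum) of the cultivar Desirée, 4 weeks old, cut into single-node pieces that each kept a leaf. The ultrasonicated arm was treated in an ultrasonicator, with 90 explants to a 50 ml glass beaker holding 40 ml of liquid MS (Murashige and Skoog) medium. The control arm was not ultrasonicated. The same explant, beaker and medium values are listed for its samples. The labels still do not say whether its explants were put in liquid medium, so immersion and ultrasound cannot be told apart. Both arms then grew on medium without growth regulators. Sampling took place directly after treatment (0 h), 24 h later, at 48 h, and again after 1 week and 4 weeks. Each library was made from a pool of 3 biological replicates, with 1 library per arm and time, so there are 10 libraries and no replicate of any arm at any time. The tissue is labelled stem at 0 h and 24 h, and stem and plantlet from 48 h on, so that the time and the kind of tissue taken cannot be told apart between those 2 sets of times. Of the green-tissue markers looked for, 1 was found by symbol, the Rubisco small subunit gene RBCS-2C. It was detected in every library, from 202 to 2063 CPM.

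Total counts per library ran from 122786170 to 161153911. Levels are in CPM (library-size scaled counts) after TMM adjustment, which sets libraries to a common level on the bulk of features. The TMM factor was furthest from 1 in the ultrasonicated library at 0 h (0.688), so the value there depends most on the scaling. In these bulk samples, fewer cells of a type and less RNA per cell cannot be told apart.

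PCM6 lies on chromosome 1, from 5358830 to 5361994 on the minus strand, as the table gives it on a genome build that is not named. No other listed feature overlaps its span of 3165 bases. The nearest feature to the left, PGSC0003DMG400046726 on the plus strand, ends with 10554 bases between them. The nearest to the right, PGSC0003DMG400022707, also on the plus strand, begins after a gap of 13589 bases. Counts of PCM6 were therefore not shared with an overlapping or antisense neighbour in this annotation. Copies elsewhere in the genome are a separate matter. The RefSeq gene table for the SolTub_3.0 assembly holds PCM6 only as a synonym, together with PCM5 and PCM7, of a gene named PCM8. It shares no identifier with the count table, so the row labelled PCM6 could not be tied to that entry. How the counting treated reads that map to several calmodulin genes is not given in the sources used here, and the count of PCM6 is uncertain to that extent. Of 39 other names searched for the calmodulin pathway, among them further calmodulins, calcium-dependent protein kinases, calcium pumps and NADPH oxidases, 0 occur among the symbols of the table, so PCM6 is described without its partners.

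PCM6 was abundantly counted in every library. The control libraries held 30793 counts at 0 h and 30854 a day later, then 40723 at 48 h, 42622 at 1 week and 64451 at 4 weeks. The ultrasonicated libraries held 31770, 37809, 41387, 39886 and 51078 counts at the same times. Counting error was small at this depth: the exact 95% Poisson interval of the lowest CPM value, that of the control library at 48 h, ran from 222 to 226. Such intervals cover counting error only, and leave out differences between plants and between library preparations. Per kilobase of gene span, a measure that counts introns as length, PCM6 stood between 70.9 and 134 CPM. Between 375 (control, 4 weeks) and 965 (ultrasonicated, 0 h) gene models had a higher level per kilobase of span in the same library. PCM6 thus ranked within the top 0.961% to 2.47% of gene models everywhere. Among the 20 genes with a symbol that passed the filter on low counts, its mean level per kilobase of span was the ninth highest. EIF5A3, a translation factor gene, stood next above it at 121 CPM per kilobase, and WAXY, a granule-bound starch synthase gene, next below it at 22.5 CPM per kilobase, against 93.9 for PCM6.

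In control explants the level of PCM6 was 272 CPM at 0 h, 258 CPM at 24 h, 224 CPM at 48 h, 297 CPM at 1 week and 424 CPM at 4 weeks. The highest control library was thus that of 4 weeks and the lowest that of 48 h, with a ratio of 1.89 between them. In ultrasonicated explants the level was 330 CPM at 0 h, 289 CPM at 24 h, 283 CPM at 48 h, 280.0 CPM at 1 week and 313 CPM at 4 weeks. These 5 libraries lay close together, with a ratio of 1.18 between the highest, at 0 h, and the lowest, at 1 week. The mean was 295 ± 77.0 CPM over the control libraries and 299 ± 21.6 CPM over the ultrasonicated ones (SD over 5 times, 1 library each), and the ranges of the arms overlapped. From 0 h to 4 weeks the ratio was 1.56 in the control arm (95% exact interval from counts 1.54 to 1.58) and 0.949 in the ultrasonicated arm (0.936 to 0.963). With total counts as the scaling these ratios were 1.93 and 1.57, so that the order of 0 h and 4 weeks in the ultrasonicated arm turns with the scaling.

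**Figure D1:**
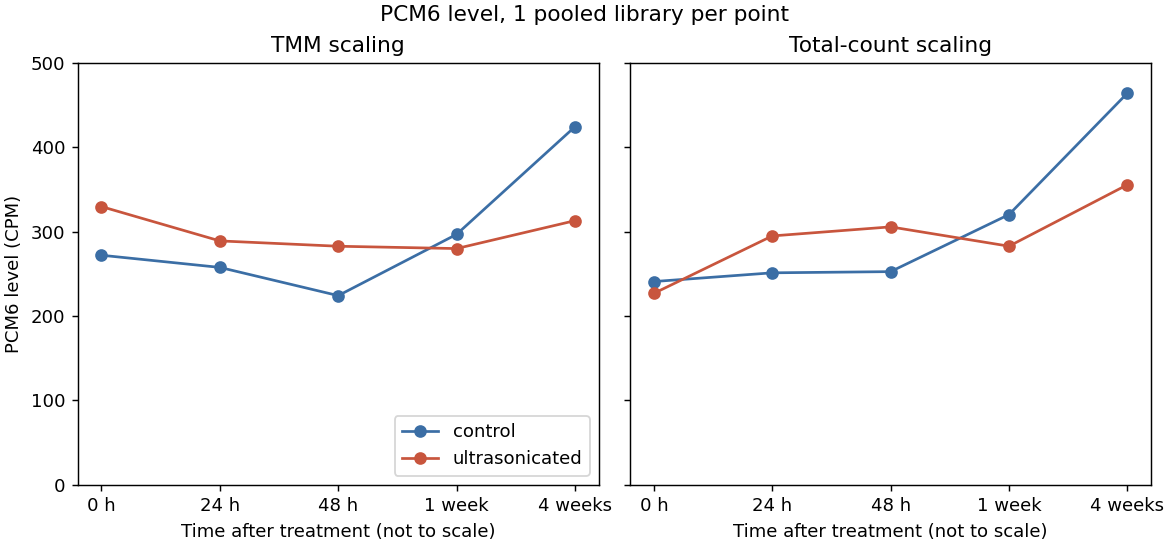
PCM6 level in CPM (vertical axis, from 0) at the 5 times (horizontal axis, not to scale) in control and ultrasonicated explants, each point 1 pooled library, with TMM scaling on the left and total counts on the right. The control library at 4 weeks is the highest point under both scalings, at 424 CPM and 464 CPM.

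Whether PCM6 differed among the 5 times was tested first, with both arms in the fit. It was not called: the edgeR quasi-likelihood F-test over the 5 times gave an unadjusted p of 0.386 and a Benjamini-Hochberg adjusted p of 0.474 over 24421 features. In the same test 28% of all features were called, and 81.3% had a smaller p than PCM6. In this additive model, with arm and time as terms, the arms stand in for replicates of a time. A time effect that differs between arms enters the error and lowers the power.

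Ordered by their mean over both arms, the times ran from 48 h (254 ± 41.4 CPM, SD, n = 2) through 24 h (273 ± 22.2 CPM), 1 week (288 ± 11.9 CPM) and 0 h (301 ± 40.8 CPM) to 4 weeks (369 ± 78.7 CPM). The 2 arms differed most at 4 weeks and least at 1 week. No neighbours in this order were set apart by the test. The log2 difference of 48 h against 24 h was -0.11 (95% interval -0.73 to 0.51). In that contrast edgeR called 0% of features, with 3269 at an unadjusted p under 0.05, while DESeq2 called 765 and limma-voom 0. The log2 difference of 1 week against 24 h was 0.080 (-0.54 to 0.70, 7.76% of features called). The log2 difference of 1 week against 0 h was -0.058 (-0.68 to 0.57), and that of 4 weeks against 0 h was 0.30 (-0.33 to 0.93). Of these 4 steps edgeR's adjusted p was lowest, 0.526, for 4 weeks against 0 h, a contrast in which 11.7% of all features were called. With total counts the order of means is different, since 0 h is then the lowest time (234 CPM) and 4 weeks is still the highest (410.0 CPM).

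With TMM, the largest log2 difference among the 10 pairs of times was that of 4 weeks against 48 h. With total counts that of 4 weeks against 0 h was larger, 0.81 against 0.55. PCM6 stood higher at 4 weeks in both arms, by a ratio of 1.89 in control (95% exact interval from counts 1.87 to 1.92) and 1.11 in ultrasonicated explants (1.09 to 1.12). The fitted log2 difference was 0.55 (SE 0.271, 95% interval -0.081 to 1.18). It had an unadjusted p of 0.0791 and an edgeR adjusted p of 0.246, against 8.43% of features called. The interval includes both 0 and a doubling, so neither can be set aside at this replication. Without the control library at 4 weeks the log2 difference was 0.23, and without the ultrasonicated library at 4 weeks it was 0.81.

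The first day after cutting left PCM6 without a called difference. At 24 h against 0 h the log2 difference was -0.14 (SE 0.270, 95% interval -0.76 to 0.49, edgeR adjusted p = 0.76), while 19.9% of features were called. At 48 h against 0 h it was -0.25 (SE 0.270, interval -0.87 to 0.38, edgeR adjusted p = 0.561), with 20.5% of features called, and at 1 week against 0 h edgeR's adjusted p was 0.897, with 24.7% called. The fitted values of these contrasts were below 0, and all 3 turned above 0 with total counts, to 0.23 at 24 h, 0.26 at 48 h and 0.37 at 1 week. Under that scaling the median of all features itself stood at 0.35, 0.53 and 0.46 in these contrasts, against 0.0083, 0.041 and 0.056 with TMM. PCM6 was below the median feature in all 3 contrasts under both scalings. At 4 weeks against 0 h it stood above the median feature, at 0.30 against 0.10 with TMM and at 0.81 against 0.61 with total counts. PCM6 was not tested against the median feature. With total counts edgeR's adjusted p was 0.0649, which is for a difference from 0. In that fit 4213 of 24421 features were called.

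Later steps were likewise not called. The log2 difference of 1 week against 48 h was 0.19 (edgeR adjusted p = 0.794, 1.29% of features called), and that of 4 weeks against 1 week was 0.36 (edgeR adjusted p = 0.463, 3.56% called). That of 4 weeks against 24 h was 0.44 (edgeR adjusted p = 0.313, 13.8% called). In the control arm alone the ratio of 4 weeks to 1 week was 1.43 (95% exact interval 1.41 to 1.45), and in the ultrasonicated arm it was 1.12 (1.10 to 1.13). These ratios compare single libraries and have no replicate check.

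**Figure D2:**
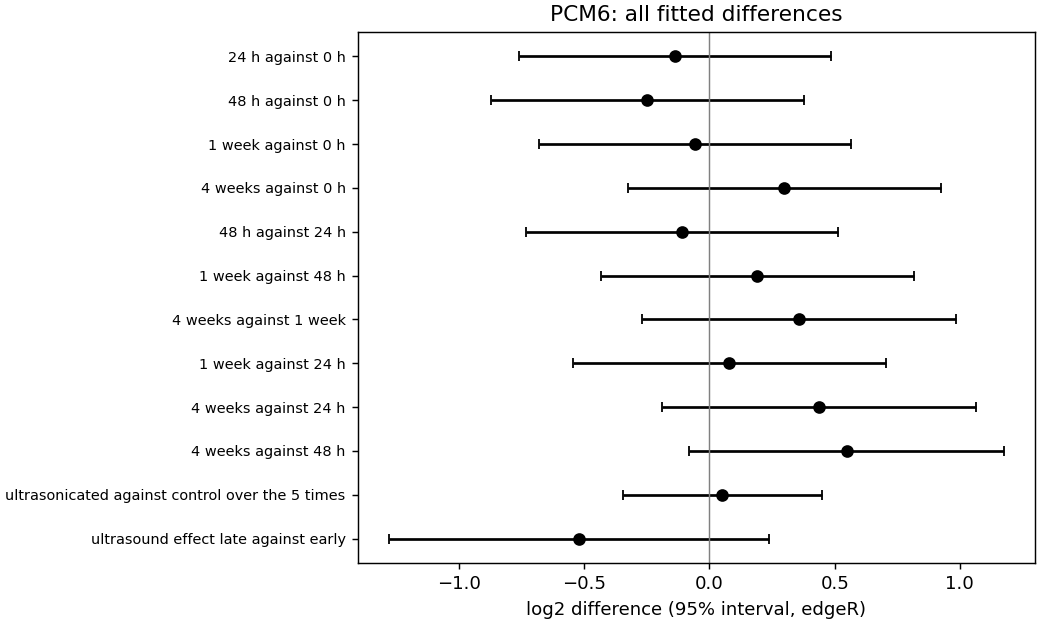
Fitted log2 differences of PCM6 (horizontal axis) in each comparison (vertical axis), with 95% intervals from edgeR's quasi-likelihood fit to the 10 libraries. Every interval includes 0, and that of 4 weeks against 48 h, from -0.081 to 1.18, reaches furthest to the right.

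The second question was whether ultrasound altered PCM6. Directly after treatment the ultrasonicated library stood at 330 CPM and the control library at 272 CPM, a ratio of 1.21 (95% exact interval from counts 1.19 to 1.23). With total counts the ratio was 0.942, so the direction at 0 h turns with the scaling, and under it the median feature had a log2 ratio of -0.28. PCM6, at -0.087, stood 0.20 above that median with total counts and 0.28 above it with TMM. Interval bounds here reflect the number of reads in 2 libraries and say nothing about other plants. At 0 h, 22.8% of features lay wholly beyond 2-fold by this interval, and 67.4% had a larger absolute log2 ratio than PCM6.

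At 24 h the ratio of ultrasonicated to control was 1.12 (1.11 to 1.14), and at 48 h it was 1.26 (1.24 to 1.28). At 1 week it was 0.943 (0.930 to 0.956), and at 4 weeks 0.738 (0.729 to 0.746). The ultrasonicated library was thus the higher one in the 3 early pairs and the lower one in the 2 late pairs. The 4 ratios from 24 h on kept their direction with total counts (1.17, 1.21, 0.883 and 0.766) and with median-ratio size factors. None of the 5 ratios lay beyond 2-fold. The share of features there was 12.4% at 24 h and 7.68% at 48 h, and it was 17.1% at 1 week and 12.3% at 4 weeks. The control library at 24 h, in the pair with the smallest early ratio, also held 2.19% of its counts in rRNA features, against 0.0333% to 0.423% in the other libraries. The part of rRNA in the result was not tested beyond leaving these features out, which gave a ratio of 1.14 at 24 h. The green-tissue marker RBCS-2C also differed within pairs. In control libraries it stood, in order of time, at 2063, 202, 273, 962 and 1311 CPM. In ultrasonicated libraries it stood at 688, 357, 239.7, 1661 and 683 CPM. The marker was thus lower in the ultrasonicated library at 4 weeks, as PCM6 was, and differed from PCM6 in direction at 0 h (with TMM), 48 h and 1 week. Its part in the ratios of PCM6 was not tested.

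**Figure D3:**
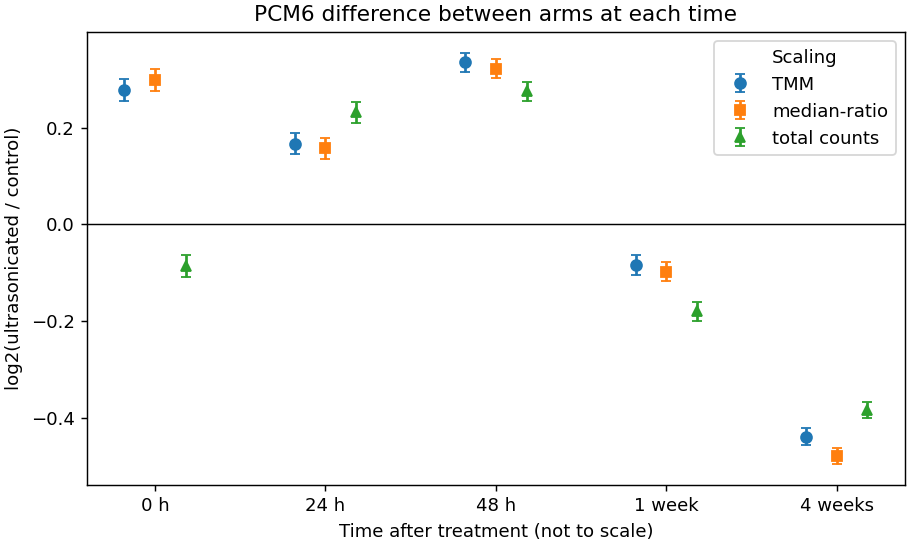
Log2 ratio of PCM6 in ultrasonicated over control explants (vertical axis) at each time (horizontal axis, not to scale) under 3 scalings, with exact 95% intervals that cover counting error only. The ratio is above 0 at 24 h and 48 h and below 0 at 1 week and 4 weeks under all 3 scalings, while at 0 h it is above 0 with TMM and median-ratio factors and at -0.087 with total counts.

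Over the 5 pairs together no common effect of ultrasound on PCM6 was called. The fitted log2 difference was 0.052 (SE 0.171, 95% interval -0.35 to 0.45, edgeR adjusted p = 0.999), higher in 3 of 5 pairs with TMM and in 2 of 5 with total counts. An exact two-sided sign-flip permutation test over the 5 log2 ratios gave p = 0.75, and the smallest p that 5 pairs allow is 0.0625. In this comparison edgeR called 0% of features (0 of 24421), with 815 at an unadjusted p under 0.05. DESeq2 called 55 and limma-voom 0, and PCM6 was called by neither.

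An interaction term then tested whether the first 3 times (0 h to 48 h, called early) had another ultrasound effect than the last 2 (1 week and 4 weeks, called late). The mean log2 ratio of PCM6 was 0.26 over the early pairs, which ran from 0.17 to 0.33, and -0.26 over the late pairs, at -0.084 and -0.44. The early ratios all lay above the late ones. With 3 values against 2 this can readily happen by order alone, and its share over all features is not given here. The fitted difference, late minus early, was -0.52 (SE 0.320, 95% interval -1.28 to 0.24), with an unadjusted p of 0.148 and an edgeR adjusted p of 0.9997. Here too edgeR called 0% of features, with 1021 at an unadjusted p under 0.05, while DESeq2 called 198 and limma-voom 0. DESeq2 gave PCM6 an adjusted p of 0.809. The pattern of PCM6, higher in every early pair and lower in every late pair, was shared by 897 of the 24421 features (3.67%) with TMM, and 3.20% showed the opposite pattern. With total counts PCM6 was lower at 0 h too, higher only at 24 h and 48 h, and 914 features (3.74%) had those directions. Without the control library at 4 weeks the interaction was -0.34, and without the ultrasonicated library at 4 weeks it was -0.37. Without the control library at 1 week it was -0.71, and without the ultrasonicated library at 1 week -0.70. In each of these fits only the other late pair informs the late effect.

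With TMM, the spread of PCM6 over the libraries was small beside that of other features. The SD of log2(CPM + 0.5) over the 10 libraries was 0.241, and the median over all tested features was 0.559. Of the 24421 features, 1278 (5.23%) had a smaller SD. Among the 15617 features with a mean of at least 5 CPM the share was 5.33%. Of the 20 tested genes with a symbol, EIF5A3 had the smallest SD, 0.189, with a range of 362 to 542 CPM, and PCM6 had the next. Close above PCM6 came 2MBCD at 0.257, then HMG3 at 0.341 and EIF5A2 at 0.353. UBI3, a ubiquitin fusion gene, had an SD of 0.563 and METK1, an S-adenosylmethionine synthase gene, one of 1.22. CHS1B, a chalcone synthase gene of flavonoid synthesis, had the widest, 1.73.

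Taken by arm, a contrast that was not planned, the spread was smaller among the ultrasonicated libraries. Within the 5 ultrasonicated libraries the SD of log2 CPM was 0.103, and 0.459% of features had a smaller one there. Within the 5 control libraries it was 0.345, and 24.4% of features had a smaller one. The ratio of control to ultrasonicated SD was 3.37 for PCM6 and 0.898 for the median feature, and 0.798% of features had a larger ratio. This contrast of the arms depended on the scaling and on single libraries. With 1 library left out the ratio ran from 1.65 to 4.73, the highest without the ultrasonicated library at 0 h. With total counts the SDs were 0.397 in control and 0.234 in ultrasonicated libraries, a ratio of 1.69, and 7.91% of features had a larger one. Without the control library at 4 weeks the control SD was 0.169 and the ratio 1.65, with 11.1% of features above it. These shares describe the libraries, with no test. Without the control library at 4 weeks the SD over the remaining 9 libraries was 0.162, so much of the spread rests on that library. With total counts the SD over 10 libraries was 0.307, and its rank among features under that scaling is not given here.

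**Figure D4:**
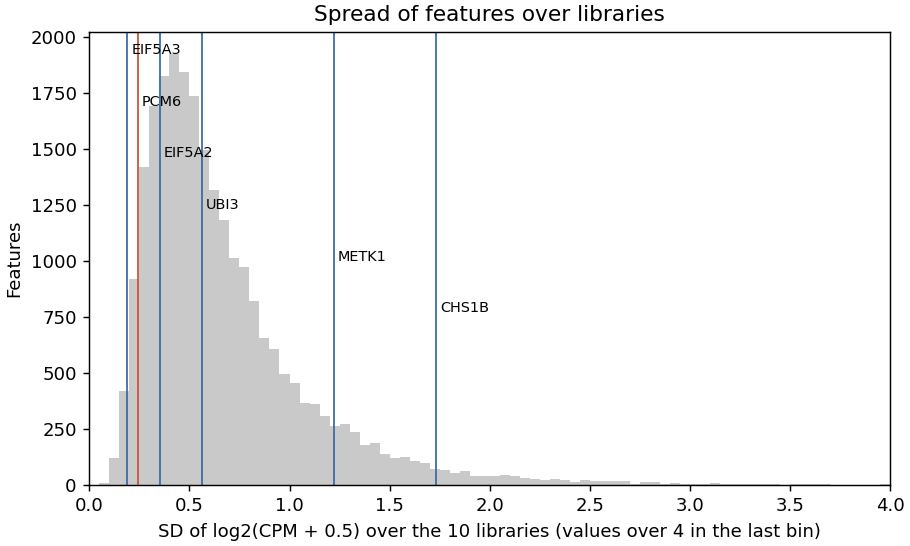
Number of features (vertical axis) by the SD of log2(CPM + 0.5) over the 10 libraries (horizontal axis), with vertical lines at 6 genes with a symbol. PCM6, at 0.241, lies to the left of the bulk of features. Among the 6 genes marked it stands between EIF5A3 at 0.189 and EIF5A2 at 0.353.

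EIF5A3 gives a view of PCM6 that needs no library scaling, since both counts come from the same library. It was chosen after its small spread with TMM was seen. In control explants PCM6 had 0.668 counts per EIF5A3 count at 0 h, and then, in order of time, 0.510, 0.546, 0.765 and 0.876. In ultrasonicated explants the values were 0.717, 0.534, 0.571, 0.774 and 0.754. In both arms the quotient was lowest at 24 h, next lowest at 48 h and then 0 h, and above these at 1 week and 4 weeks. The ultrasonicated quotient over the control quotient was 1.07 at 0 h, 1.05 a day later and 1.04 at 48 h. It was 1.01 at 1 week and 0.861 at 4 weeks, so that by this measure only the pair at 4 weeks had the ultrasonicated library lower. A quotient of 2 genes does not say which of them moved.

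The profile of PCM6 over the libraries was then compared with those of 15616 other features at a mean of at least 5 CPM. The measure was Pearson's r of log2(CPM + 0.5) over the 10 libraries, which come from the same 10 pools and share their depth and scaling. It is given as a description. The median r was -0.0010, with 5% of features above 0.63 and 5% below -0.58, and 6 features exceeded 0.9. The most alike was PGSC0003DMG400011508 on chromosome 4 (4592586 to 4600903), with r = 0.94 and a Spearman rho of 0.99. Its control levels were 4.75, 4.37, 4.35, 6.98 and 11.4 CPM in order of time, and its ultrasonicated levels 7.25, 5.51, 5.16, 4.89 and 7.88 CPM. Like PCM6 it was highest in the control library at 4 weeks, and within each arm its lowest library was at the same time as that of PCM6. Such likeness follows in part from its choice by r over these same libraries. The next was PGSC0003DMG400008014, also on chromosome 4 (68269026 to 68276002), with r = 0.93 (rho 0.89) and a range from 16.0 to 27.9 CPM.

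At the other end stood PGSC0003DMG400024802 on chromosome 4 (58430553 to 58434782), with r = -0.91 and rho -0.77. Its control levels were 116, 121, 197, 92.3 and 40.2 CPM, highest at 48 h and lowest at 4 weeks, where PCM6 had its lowest and highest control level. PGSC0003DMG402010657 on chromosome 1 (59203454 to 59210681) followed with r = -0.91 and rho -0.75. Of the 19 other tested genes with a symbol, EIF5A2, a translation factor gene of the same family as EIF5A3, had the highest r with PCM6, 0.81, and SS2, a starch synthase gene, the lowest, -0.55. The table gives no function for the features without a symbol.

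**Figure D5:**
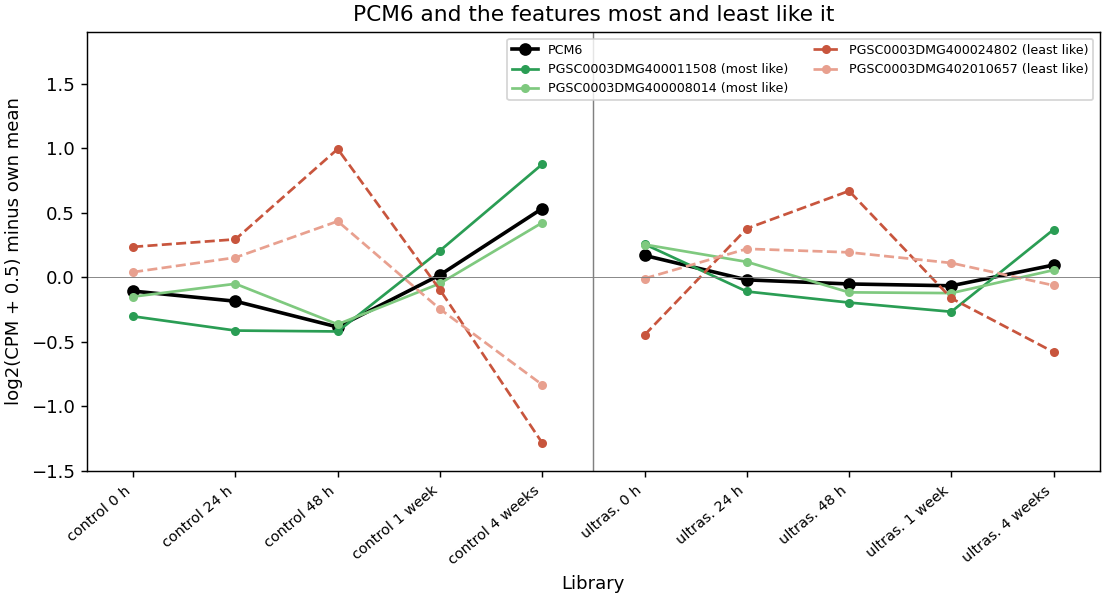
Log2(CPM + 0.5) of PCM6, of the 2 features most like it and of the 2 least like it, each minus its own mean over the 10 libraries (vertical axis), by library (horizontal axis). PCM6 and the features most like it (r = 0.94 and 0.93) peak in the control library at 4 weeks, where the features least like it (r = -0.91 for both) have their lowest value. The features were picked by r over these same libraries.

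The chromosomal neighbours of PCM6 had other profiles. PGSC0003DMG400046726, to the left, had 79.0 CPM in the control and 54.5 CPM in the ultrasonicated library at 0 h, and 3.22 and 3.09 CPM at 1 week. It fell by 4.39 on the log2 scale from 0 h to 1 week (edgeR adjusted p = 0.000247), lower in both arms, and its r with PCM6 was -0.23. PGSC0003DMG400022707, to the right, ranged from 51.2 CPM in the ultrasonicated library at 24 h to 509 CPM in the ultrasonicated library at 4 weeks. It did not pass the test over the 5 times (edgeR adjusted p = 0.157), and its r with PCM6 was 0.086. Both neighbours had a wider spread over the libraries than PCM6, with an SD of log2 CPM of 1.55 and 0.903.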

How the data were processed

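The deposited table holds raw read counts per feature, whole numbers with no normalization, as the values show. Reads went through HISAT2 2.1.0, Trim Galore 0.5.0 and FastQC 0.11.5, per the submitters' processing notes. Not given in the sources used here are the counting program, how it used strand and reads mapped to several places, and the build and annotation release. Columns were matched to samples by their descriptions.

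Counts were fitted with edgeR 4.0.16 in R 4.3.3 across all 24421 features kept by filterByExpr, with TMM scaling, quasi-likelihood F-tests and Benjamini-Hochberg adjustment at 0.05. The model held arm and time (4 residual degrees of freedom), and an arm-by-late term was added for the interaction. Time pairs the arms. With 1 library per arm and time, the error of the fit comes from disagreement of the arms across times that the model leaves unexplained. The p-values thus do not measure variation between repeat libraries or between plants. The SE is the size of the log2 difference over the root of F, and its interval uses the fit's total degrees of freedom. Ratios of single libraries carry Clopper-Pearson intervals. A pseudocount of 0.5 CPM preceded log2 for spreads and correlations. Alternatives used DESeq2 1.42.0, limma-voom 3.58.1, other scalings and filters, and each library or time left out. The code was tested on simulated data with changes larger than any fitted for PCM6, which does not show the power for changes of the size seen in PCM6. Named features follow a rule: the 2 highest and 2 lowest r, the nearest neighbour on each side, and the genes with a symbol at the extremes. UBI3, METK1 and CHS1B were added as known examples, and 2MBCD and HMG3 as genes close to PCM6 in spread. EIF5A3 was added as a scale after its values were seen. The gene, the lists and the tests were chosen with earlier results of these data known.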

Additional observations from a re-analysis of the deposited data

How the results depend on the processing

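Under 268 alternative fits of the 13 tested comparisons, PCM6 was called in 0; the lowest edgeR adjusted p was 0.0649, for 4 weeks against 0 h with total counts. Some uncalled values changed sign. With total counts the log2 differences were 0.23 at 24 h, 0.26 at 48 h and 0.37 at 1 week against 0 h, 0.032 at 48 h against 24 h, and -0.029 for ultrasound over the 5 times. The last was -0.022 without both libraries at 24 h and -0.037 without both at 48 h. Leaving out 1 library at a time gave -0.037 to 0.17 for ultrasound, -0.022 to 0.59 for 4 weeks against 0 h, -0.19 to 0.027 for 1 week against 0 h, -0.24 to 0.051 for 48 h against 24 h and -0.017 to 0.20 for 1 week against 24 h. The value of 4 weeks against 0 h was -0.022 without the control library at 4 weeks.

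The ratios of arms moved beyond their counting intervals. With total counts they were 0.942 at 0 h (direction reversed), 1.17, 1.21, 0.883 and 0.766 in order of time; with rRNA features left out 1.14, 1.195, 0.912 and 0.719 from 24 h on; and with median-ratio factors 0.717 at 4 weeks. On EIF5A3 counts, a scaling chosen after seeing the data, they were 1.07, 1.05, 1.04, 1.01 (direction reversed at 1 week) and 0.861. The cause of these moves was not tested. The ratio of control to ultrasonicated SD, 3.37, was 1.69 with total counts and 1.65 to 4.73 with 1 library left out, alternatives also added after seeing the data. With Spearman's rho 1 of the 2 features most like PCM6 was kept. Each arm and time has 1 library with no replicate number, and time itself is the block of the fit; without it the ultrasound difference was 0.019.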
